A study of Homo sapiens with 3 samples.

Results

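The genes examined encode the nuclear subunits of the 5 complexes of oxidative phosphorylation. They were chosen by gene symbol, with no measured value in the rule: NDUF symbols for complex I, SDHA to SDHD for complex II, UQCR symbols and CYC1 for complex III, COX symbols of the subunit families from COX5 to COX8 for complex IV, and ATP5 symbols for complex V. NDUFA4, which carries a complex I symbol but is known as a subunit of complex IV, was counted in complex IV. Of 19974 protein-coding RefSeq genes on chromosomes 1 to 22 and X, 84 matched, and 67 of the 84 were named in at least 1 deposited row. By complex there were 37 genes in complex I, 4 in complex II, 10 in complex III, 15 in complex IV and 18 in complex V. Pseudogenes that matched the symbols were set aside.

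EP300 is a histone acetyltransferase and transcriptional coactivator, mapped here by chromatin immunoprecipitation and sequencing (ChIP-seq). Both groups were wild-type H9 cells, an established human embryonic stem cell line, kept naive on a feeder layer of mouse embryonic fibroblasts in PXGL medium, which adds LIF at 10 ng/mL and blocks MEK, tankyrase and protein kinase C. The EP300 group held 2 samples precipitated with an EP300 antibody, and the input group held 1 sample without antibody, which had no peak table here. All cells belonged to a single line, no source says that the EP300 samples were separate cultures, and their spread may therefore be technical.

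Complex I oxidises NADH and complex II oxidises succinate, and both pass electrons to ubiquinone. Complex III hands them to cytochrome c, complex IV reduces oxygen, and complex V makes ATP from the proton gradient that complexes I, III and IV build. Some subunits of complexes I, III, IV and V are encoded by mitochondrial DNA and were not analysed here. The nuclear subunit genes are known for promoters that respond to the factors NRF1, GABPA (an ETS factor) and YY1 and to coactivators of the PGC-1 family.

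The lists held 65276 joined peaks in replicate 1 and 64896 in replicate 2, and 46263 regions were shared between them. The fold enrichment quoted below is the authors' own ratio at a peak summit, with a median of 4.51 over all joined peaks in both lists and of 5.67 and 5.71 over promoter peaks. A percentile is the rank of that ratio within its own list. The peak tables hold no read counts, and depth is therefore unknown. All 5 pluripotency markers and all 8 naive markers had a promoter peak of their name in both lists, against 67.6% of all coding genes. So did 4 of 6 fibroblast markers, COL1A1, COL1A2, THY1 and PDGFRB, while DCN and LUM had none. The median percentile, in the lower of both lists, was 94.3 for pluripotency, 63.4 for naive and 81.8 for fibroblast markers. Over all coding genes with such a peak it was 80.1. Peaks do not measure expression, and the part of the feeder layer in these results was not tested.

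Most oxidative phosphorylation promoters held EP300 in both samples, at levels below the middle of occupied coding promoters. A promoter peak that the authors named for the gene was present in both lists, overlapping by at least 1 bp, for 60 of the 84 genes (71.4%), against 67.6% of all coding genes. When regions were assigned by position, as a shared region within 3 kb of the RefSeq 5′ end, 72 of 82 genes with a decided end had one (87.8%), against 72.7% of coding genes. By both rules 59 genes had a region, by either rule 73, and by neither rule 9 genes with a known end. A fold enrichment of at least 10 in both lists was reached by 14 of the 84 genes, against 24.0% of all coding genes.

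The height of these regions was lower than in the other coding genes. Among genes with a promoter peak of their name in both lists, the median fold enrichment of the 60 oxidative phosphorylation genes was 7.85 and 7.38 in replicates 1 and 2, against 8.88 and 9.03 in the 13446 other coding genes. The median percentile, taken as the lower of both lists, was 70.4 for the oxidative phosphorylation genes and 80.1 for the others, and over regions by position it was 75.8 and 79.8. Peaks were also narrower, with a median width of 968.5 bp and 965.5 bp in replicates 1 and 2 of the oxidative phosphorylation genes, against 1284 and 1333.5 bp in the other coding genes. Of the 60, 49 lay above the median of all joined peaks in both lists, against 11556 of the 13446 other coding genes. The design has 1 group with no contrast, and genes are not replicates, so these are descriptions and no test was made.

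**Figure D1:**
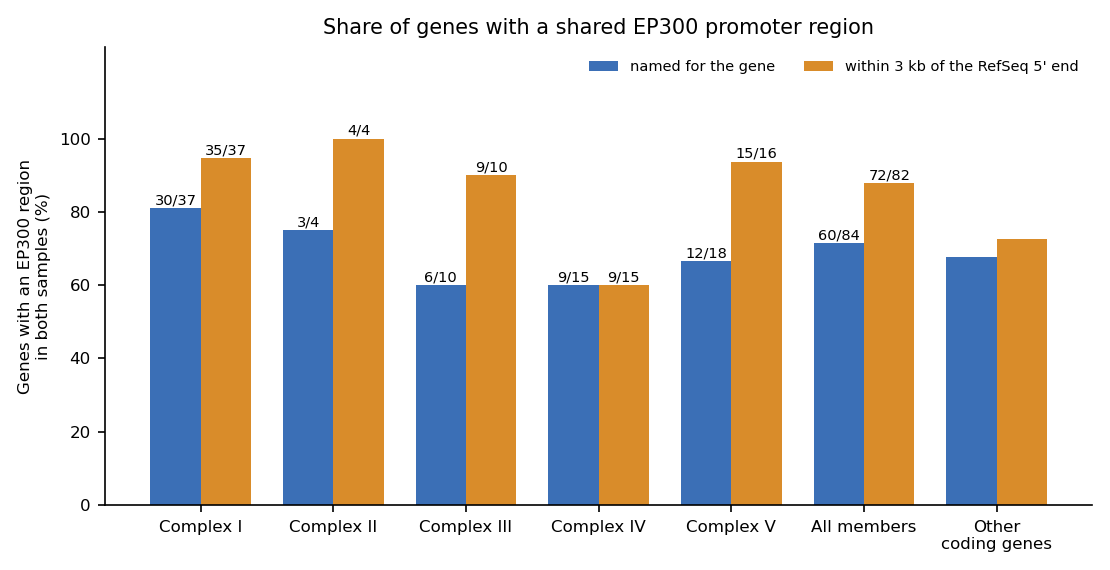
Bars give the percentage of genes with an EP300 region in both samples for complexes I to V, for all 84 genes and for the 19890 other coding genes, by the authors' gene name (blue) and by position within 3 kb of the RefSeq 5′ end (orange), with gene counts above the bars. Position raises the share in complexes I, II, III and V, while complex IV stays at 9 of 15 by both rules.

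Promoter windows of RefSeq (GRCh38.p14, 250 bases before to 50 after a start) were matched for 68 of the 84 genes, with the start nearest a shared summit taken for each gene. Among those not matched were ATP5F1B, ATP5F1D, ATP5MC3, ATP5MF, ATP5MGL, COX6C, COX7A1, CYC1, NDUFB5, NDUFB9, NDUFC2, NDUFS5, SDHC, UQCRB and UQCRHL. The stretches below run from 120 bases before the start to 30 after it, on the gene's own strand. They show, for each complex, the highest-ranked gene whose EP300 region of its own name overlapped its window: NDUFS6 (chr5:1801287-1801436, plus strand), SDHA (chr5:218200-218349, plus), UQCR11 (chr19:1605433-1605582, minus), COX5A (chr15:74938044-74938193, minus) and ATP5PF (chr21:25735025-25735174, minus). Capitals mark letters of the searched motifs on either strand.
NDUFS6: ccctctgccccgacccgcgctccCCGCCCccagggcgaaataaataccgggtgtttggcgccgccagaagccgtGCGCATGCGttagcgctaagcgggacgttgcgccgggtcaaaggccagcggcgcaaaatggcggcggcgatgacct
SDHA: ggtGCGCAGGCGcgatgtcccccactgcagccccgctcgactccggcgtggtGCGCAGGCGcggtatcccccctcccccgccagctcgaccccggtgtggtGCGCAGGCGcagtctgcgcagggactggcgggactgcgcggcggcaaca
UQCR11: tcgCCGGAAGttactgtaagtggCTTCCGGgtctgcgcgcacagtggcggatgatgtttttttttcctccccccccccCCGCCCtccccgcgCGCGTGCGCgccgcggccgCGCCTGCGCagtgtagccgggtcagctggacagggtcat
COX5A: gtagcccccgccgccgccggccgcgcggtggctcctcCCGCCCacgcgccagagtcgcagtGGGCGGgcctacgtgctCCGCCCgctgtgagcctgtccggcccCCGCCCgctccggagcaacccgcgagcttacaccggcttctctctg
ATP5PF: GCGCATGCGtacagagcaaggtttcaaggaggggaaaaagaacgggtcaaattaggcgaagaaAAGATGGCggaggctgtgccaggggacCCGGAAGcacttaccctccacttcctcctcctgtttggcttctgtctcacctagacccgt

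The 5 motifs were searched on both strands as NRF1 (GCGCANGCG), ETS or GABPA (CCGGAAG), YY1 (AAGATGGC), SP1 or KLF (GGGCGG) and NF-Y (CCAAT). In the stretches above, SDHA held the NRF1 letters at 3 places, and UQCR11 held the ETS letters at 2 places, the NRF1 letters at 2 and the SP1 letters at 1. ATP5PF held NRF1, YY1 and ETS letters, with its ETS match starting at base -30 before the start. COX5A held SP1 letters at 4 places and none of the other 4 motifs. These are matches of letters, not binding sites, and motifs may share bases.

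Over the whole windows, the NRF1 letters were present in 24 of 68 oxidative phosphorylation promoters (35.3%), against 11.0% of 15812 coding promoters. The ETS letters were present in 19 (27.9%), against 14.5%, and the YY1 letters in 12 (17.6%), against 4.02%. SP1 letters were present in 40 (58.8%), against 61.1%, and NF-Y letters in 23 (33.8%), against 35.0%. At least 1 of the NRF1, ETS and YY1 motifs was found in 43 of the 68 windows (63.2%), against 25.9% of coding windows. The YY1 letters lay close to the start, with a median first base at position 18 downstream over 12 matches, whereas NRF1 matches had a median of -63 over 39 matches and ETS matches one of -46.5 over 24.

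**Figure D2:**
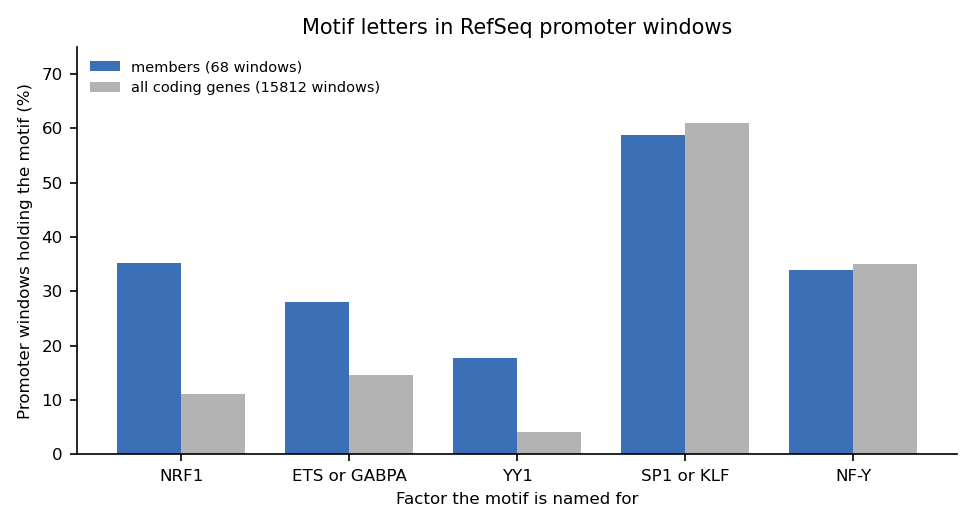
Bars give the percentage of 300-base RefSeq promoter windows that hold each motif on either strand, in 68 oxidative phosphorylation genes (blue) and in 15812 coding genes (grey). The NRF1, ETS and YY1 bars stand higher in the oxidative phosphorylation genes (35.3%, 27.9% and 17.6%), and the SP1 and NF-Y bars differ by under 3 percentage points.

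The motifs were spread unevenly over the complexes. NRF1 letters were present in 10 of 32 windows of complex I, 2 of 3 of complex II, 4 of 7 of complex III, 2 of 13 of complex IV and 6 of 13 of complex V. YY1 letters were present in 7 windows of complex I, 1 of complex II, 1 of complex III and 3 of complex V, and in 0 of 13 of complex IV. ETS letters were present in 4 of 32 windows of complex I (12.5%), under the 14.5% of coding windows. In complexes II to V they were present in 2 of 3, 3 of 7, 4 of 13 and 6 of 13 windows. NF-Y letters were most frequent in complex IV, in 7 of 13 windows, and absent from the 3 of complex II. The median percentile of the EP300 region by position was 76.8 in 20 oxidative phosphorylation genes with NRF1 letters and 74.9 in 40 without them. Over all coding genes these medians were 81.3 and 79.8. For ETS letters the medians were 81.0 in 18 genes with them and 72.4 in 42 without, whereas over all coding genes they were 79.6 and 80.1. For NF-Y letters the medians were 70.2 in 19 genes with them and 79.1 in 41 without, against 77.9 and 81.1 over all coding genes. For YY1 letters they were 75.2 in 12 genes with them and 76.5 in 48 without, against 81.3 and 80.0. For SP1 letters they were 77.6 in 36 genes with them and 73.1 in 24 without, against 80.7 and 77.7. The complexes were pooled in these medians, and whether motif or complex goes with the height was not tested.

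Complex I had a shared promoter region of its name at 30 of 37 genes and a region by position at 35 of 37. Its median fold enrichment was the lowest of the 5 complexes, at 6.26 in replicate 1 and 6.62 in replicate 2. Of the 7 core subunits, which bacterial complex I also has, 6 had a region of their name, with medians of 6.13 and 6.87, against 24 of 30 accessory genes, with medians of 6.95 and 6.55.

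Among the 30 complex I genes with a region of their own name, 24 encode accessory subunits, and so did all of the 4 highest-ranked. NDUFC1 had fold enrichments of 16.0 in replicate 1 and 17.3 in replicate 2, NDUFS6 had 15.5 in both, NDUFA6 had 14.3 and 15.2, and NDUFB10 had 12.3 and 13.0. For each of these the replicates lay within 0.11 of each other on the log2 scale. At NDUFC1 the high peak lay at a start inside the RefSeq gene extent, and the region within 3 kb of its RefSeq 5′ end had 8.77 and 8.06.

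NDUFB5, a membrane-arm subunit, was among the lowest of complex I, with 3.47 in replicate 1 and 4.38 in replicate 2. Its peaks lay at percentile 25.0 in the lower of both lists. A further 24 complex I genes with a region of their name ran from 4.10 (NDUFA2) to 11.4 (NDUFC2) in replicate 1 and from 3.72 (NDUFA2) to 10.5 (NDUFB8) in replicate 2.

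**Figure D3:**
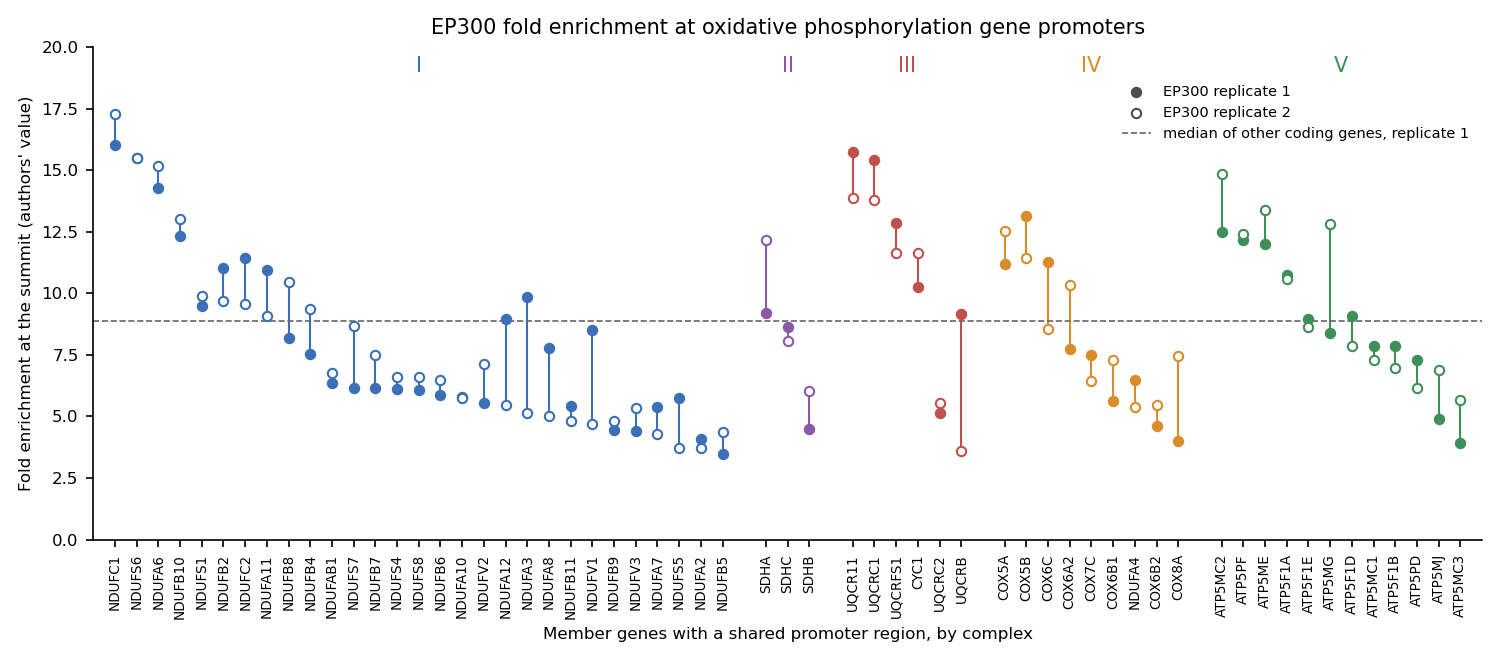
Each column is 1 of 59 genes with a promoter peak of its name in both lists, grouped by complex and ordered by percentile, with the authors' fold enrichment on a linear axis, filled points for replicate 1, open points for replicate 2 and a line joining them. Complex I runs from NDUFC1 at 16.0 and 17.3 down to NDUFB5 at 3.47 and 4.38, and the dashed line marks the replicate 1 median of other coding genes at 8.88.

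All 4 complex II genes had a region by position, and 3 had one of their name. SDHA, the flavoprotein that oxidises succinate, had 9.20 in replicate 1 and 12.2 in replicate 2. The membrane anchor SDHC had 8.65 and 8.04, and SDHB, the iron-sulfur subunit, had 4.49 and 6.04. SDHA was thus the highest of these 3 genes in both lists and SDHB the lowest. The other anchor, SDHD, had a region with 6.45 and 5.37 that the authors named for TIMM8B, whose 5′ end lies 117 bp away on the opposite strand.

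Complex III had the highest median, at 11.6 in both replicates over the 6 of 10 genes with a region of their name, and 9 of 10 by position. UQCR11, a small subunit, had 15.7 in replicate 1 and 13.9 in replicate 2, and UQCRC1, a core protein, had 15.4 and 13.8. UQCRFS1, the Rieske iron-sulfur protein, had 12.9 and 11.6, and CYC1, cytochrome c1, had 10.2 and 11.6. These were the 4 complex III genes with a region of their own name at 10 or more in both lists. The second core protein gene, UQCRC2, had 5.14 and 5.56, lower than UQCRC1 in both samples.

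UQCRB, a small subunit of complex III, had the largest difference between replicates of all 60 genes, with 9.16 in replicate 1 and 3.61 in replicate 2 (log2 ratio -1.34, replicate 2 over 1). NDUFA3 followed with 9.87 and 5.16 (log2 ratio -0.94). In the other direction COX8A had 4.02 and 7.46 (0.89) and ATP5MG had 8.39 and 12.8 (0.61). At COX8A, replicate 1 also had a separate peak with 6.14 that was named for another gene and that the single peak of replicate 2 overlapped, and by position the values were 6.14 and 7.46. Over the 60 genes the median log2 ratio was 0.04 and the median absolute log2 ratio 0.23, against 0.04 and 0.19 for the other coding genes. Of the 60, 32 were higher in replicate 2.

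Complex IV had a region at 9 of 15 genes both by name and by position, the lowest share of the 5 complexes by position. The medians over the 9 were 7.50 in replicate 1 and 7.46 in replicate 2. COX5B had 13.1 and 11.4 and COX5A had 11.2 and 12.5; both encode subunits on the matrix side. COX6C followed with 11.3 and 8.54, and COX6A2 with 7.74 and 10.3. The lowest by percentile in the lower of both lists were COX8A, given above, and COX6B2, with 4.61 and 5.48. COX7C had 7.50 and 6.44 and NDUFA4 had 6.47 and 5.40.

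Several complex IV subunits have isoforms, one ubiquitous and one restricted to muscle or testis, and regions were present and missing in both kinds. COX6A1, the ubiquitous isoform, had no shared region by either rule, whereas COX6A2, the heart and skeletal muscle isoform, had 7.74 in replicate 1 and 10.3 in replicate 2. COX6B1 had 5.61 and 7.27, and its testis isoform COX6B2 had 4.61 and 5.48. Neither COX7A1, the muscle isoform, nor COX7A2, the ubiquitous one, had a shared promoter region. COX7B and the testis isoform COX7B2 also had none. COX8A had a region and the testis isoform COX8C had none.

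The promoters of the ubiquitous isoforms without a shared region are shown for comparison with those of COX5A above. COX6A1 lies at chr12:120437993-120438142 on the plus strand, COX7A2 at chr6:75243772-75243921 on the minus strand and COX7B at chrX:77899348-77899497 on the plus strand, all GRCh38.p14 stretches from RefSeq with motif letters in capitals.
COX6A1: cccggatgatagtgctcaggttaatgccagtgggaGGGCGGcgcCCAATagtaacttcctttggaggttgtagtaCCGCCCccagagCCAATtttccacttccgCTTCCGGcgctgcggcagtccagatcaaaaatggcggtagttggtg
COX7A2: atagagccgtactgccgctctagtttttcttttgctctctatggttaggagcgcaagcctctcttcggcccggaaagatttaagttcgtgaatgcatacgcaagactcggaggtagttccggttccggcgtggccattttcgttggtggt
COX7B: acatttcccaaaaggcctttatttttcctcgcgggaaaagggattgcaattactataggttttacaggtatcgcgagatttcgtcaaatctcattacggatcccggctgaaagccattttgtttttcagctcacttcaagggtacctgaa
COX6A1 held SP1 letters at 2 places, NF-Y letters at 2 and ETS letters at 1, and its window held NRF1 letters farther upstream, while the stretches of COX7A2 and COX7B held none of the 5 motifs. Median GC content was 61.8% in the 60 windows of oxidative phosphorylation genes with a region by position and 52.8% in the 8 without. It was 64.0% over all coding windows and 66.7% over those with a region by position. The 8 include ATP5MC2, which had a region of its name with 12.5 and 14.9. With 8 genes in the smaller set, these medians are a description.

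Complex V had a region of its name at 12 of 18 genes and by position at 15 of 16 with a decided end. The medians over the 12 were 8.68 in replicate 1 and 8.24 in replicate 2. Subunit c, which forms the rotating ring, is encoded by 3 genes whose mature protein is the same: ATP5MC2 had 12.5 and 14.9, ATP5MC1 had 7.85 and 7.30, and ATP5MC3 had 3.92 and 5.67. The order of the 3 genes was the same in both samples, with no overlap of their values.

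Of the other complex V genes, ATP5PF, coupling factor 6 of the stalk, had 12.2 and 12.4, ATP5ME, a membrane subunit, had 12.0 and 13.4, and ATP5F1A, the alpha subunit of the catalytic head, had 10.8 and 10.6. The catalytic beta subunit gene ATP5F1B had 7.85 and 6.97. After ATP5MC3, the lowest by percentile in the lower of both lists was ATP5MJ with 4.91 and 6.89. Of the catalytic F1 genes 4 of 5 had a region of their name, and ATP5F1C, the gamma subunit, had one named for its neighbour KIN. The other genes with a region of their name were ATP5F1E with 8.96 and 8.63, ATP5F1D with 9.07 and 7.85, ATP5PD with 7.28 and 6.17 and ATP5MG with 8.39 and 12.8.

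Of the 13 genes with a region by position but no promoter region of their name in both lists, 12 share their start region with a neighbouring gene. A coding gene on the opposite strand had its 5′ end within 1 kb for 24 of the 82 genes with known strand (29.3%), against 13.1% of coding genes. The distance ran from 9 to 681 bp, with a median of 161.5 bp. All 24 had a shared region by position, against 95.3% of the 2472 coding genes with such a neighbour. Of the 24, 12 also had a shared promoter region of their own name and 12 did not. At NDUFA7 the named region, with 5.40 and 4.30, was not the one by position, which had 8.02 and 7.07 under another name. Of the 58 without such a neighbour, 48 had a region. No share was computed for coding genes without such a neighbour. Coding genes with one also had a region more often than all coding genes (95.3% against 72.7%), so this gap is not particular to the subunit genes. These pairs were found in 13 genes of complex I, 2 of complex II, 3 of complex III, 6 of complex V and 0 of complex IV. A single peak over both starts cannot be assigned to one gene of the pair.

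The strongest of the regions named for a neighbour lay at complex I genes. NDUFB1, a membrane-arm subunit, had 19.4 in replicate 1 and 22.6 in replicate 2 in a region named for CPSF2, 263 bp away. NDUFS3, a core subunit of the matrix arm, had 17.1 and 17.4 in a region named for KBTBD4, 104 bp away. In each list the fold enrichments of both regions exceeded those of every complex I gene with a region of its own name. Which gene of each pair these regions belong to cannot be told. The summits lay at -507 and -517 bp from the NDUFB1 5′ end (upstream), and 167 and 155 bp downstream of that of NDUFS3. The NDUFS3 stretch (GRCh38.p14, RefSeq, chr11:47578954-47579103, plus strand) held the ETS letters at 2 places, and its SP1 match shares bases with one of them.
NDUFS3: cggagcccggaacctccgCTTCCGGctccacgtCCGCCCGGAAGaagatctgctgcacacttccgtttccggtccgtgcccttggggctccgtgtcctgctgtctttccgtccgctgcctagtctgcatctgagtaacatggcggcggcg

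In complexes III and V the highest regions named for a neighbour were lower than those at NDUFB1 and NDUFS3 in both lists. UQCRH, the hinge protein of complex III, had 11.7 and 16.0 in a region named for LRRC41, and UQCRQ, a small subunit, had 11.7 and 9.94 in a region named for GDF9, whose 5′ end lies 9 bp away. ATP5PB, subunit b of the stator, had 11.6 and 14.8 in a region named for WDR77, and ATP5F1C had 12.0 and 10.4. From the gene's 5′ end, summits lay upstream at UQCRH (-743 and -702 bp) and ATP5PB (-494 and -512 bp). They lay downstream at UQCRQ (282 and 300 bp) and ATP5F1C (251 and 279 bp). The 5′ end of ATP5PF lies 681 bp from that of GABPA, the ETS factor named above, so the region with 12.2 and 12.4 lies within 3 kb of both 5′ ends.

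The remaining regions of this kind were lower or split. NDUFA13 had 10.1 and 8.50 in a region named for TSSK6, NDUFA9 had 4.14 and 4.35 in one named for AKAP3, and NDUFA1 had 4.09 and 4.97 in one named for RNF113A. UQCR10, with 6.38 and 7.51, and ATP5MK, with 7.26 and 6.39, were named in replicate 1, whereas the overlapping peak of replicate 2 was named for ZMAT5 and PDCD11. ATP5PO, the subunit that joins head and stator, had 10.3 and 7.42 in a region named for the non-coding gene LINC00649. The reverse case was ATP5MC2, whose region lay outside 3 kb of its RefSeq 5′ end.

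The 9 genes without a shared region by either rule were NDUFA5, NDUFB3, UQCRHL and the complex IV genes COX6A1, COX7A1, COX7A2, COX7B, COX7B2 and COX8C. In 2 of them a promoter peak was present in replicate 1 alone, at NDUFB3 with 3.04 and at UQCRHL with 3.62. UQCRHL is an intronless relative of UQCRH, whose start lay in the region with 11.7 and 16.0 named for LRRC41. For ATP5MF and ATP5MGL no source here gives the strand and only 1 gene end had a region, so they were left undecided. Near that end of ATP5MF lay a region named for PTCD1 with 14.7 and 14.5, and near that of ATP5MGL a region named for CYB5R3 with 4.27 and 3.70.

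EP300 summits usually lay just downstream of the start. In the 60 genes with a region of their name, the median summit was 216.5 bp downstream in replicate 1 and 235 bp in replicate 2, against 230 bp in both for the other coding genes. The summit was downstream in 49 and 44 of the 60 genes, against 9984 and 9999 of the 13446 other coding genes. It lay within 500 bp of the start in 55 and 54 of the 60, against 10367 and 10337 of the others. The summits of both samples lay a median of 30 bp apart. In complex V, by the start the authors assigned, the medians were 151.5 bp in replicate 1 and -160 bp (upstream) in replicate 2, with ATP5PF at -629 and -636, ATP5MC1 at -686 and -706, ATP5MC2 at -487 and -507 and ATP5F1B at -447 and -451. In each of these 4 genes the summits of both samples lay within 20 bp of each other. In replicate 2 no complex V summit lay between -451 bp (ATP5F1B) and 131 bp (ATP5ME), so the median of -160 bp falls in a gap. Only ATP5PD changed side between the samples, from 291 bp in replicate 1 to -477 bp in replicate 2. These distances depend on the start the authors assigned: from the RefSeq 5′ end, ATP5F1B had its summits at 258 and 254 bp downstream, ATP5PF at -3 and -10 bp and ATP5MC1 at -708 and -728 bp, and the ATP5MC2 region lay over 3 kb away.

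**Figure D4:**
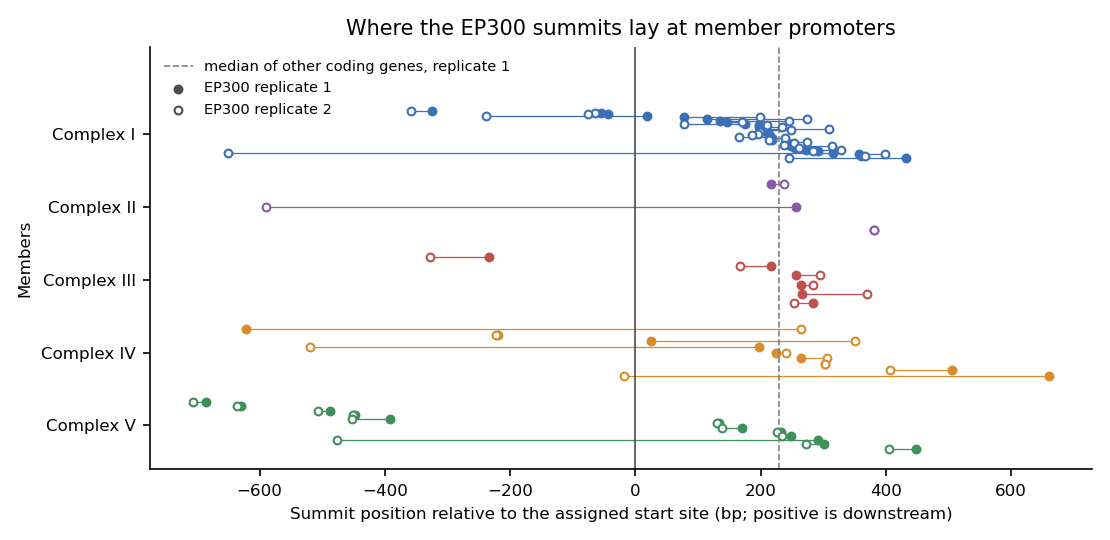
Each line is 1 of the 60 genes, with the summit of replicate 1 (filled) and replicate 2 (open) on an axis of distance in bp from the start the authors assigned, positive downstream. Most genes of complexes I to IV cluster near the median of other coding genes at 230 bp (dashed), and a group of complex V genes lies upstream, down to -706 bp.

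Away from promoters, 8 shared EP300 regions were assigned to 6 of the 84 genes. Such regions were not counted for other coding genes, so no background share can be set beside this. A region 36.9 kb upstream of NDUFB4 had 9.49 in replicate 1 and 8.52 in replicate 2, and another lay 15.2 kb downstream of its start with 5.84 and 3.96. A region 18.2 kb upstream of ATP5MC2 had 8.92 and 9.25. COX7C had 2, at 107 kb upstream with 4.88 and 6.49 and at 48.2 kb upstream with 5.52 and 5.01. COX7A1, with no promoter region, had one 7.72 kb upstream with 3.51 and 4.10. NDUFAB1, the mitochondrial acyl carrier protein, had one with 5.43 and 4.58, and ATP5PO had one in its 3′ UTR with 2.66 and 4.58. The assignment is to the nearest gene in the authors' tables and does not show which gene a region acts on.

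Genes around the pathway were compared by lists outside the symbol rule. Of 48 assembly factors, 35 had a region of their name and 46 had one by position, with a median percentile of 75.6; LYRM7 and COA3 had none by position. The highest by name were NDUFAF3 with 21.9 in replicate 1 and 19.9 in replicate 2, NDUFAF6 with 17.2 and 19.2, UQCC2 with 14.3 in both and COX19 with 13.5 and 16.7. The region within 3 kb of the NDUFAF6 RefSeq 5′ end was another one, named for CCNE2, with 4.85 and 4.27. Assembly factors build the complexes without staying in them. Those without a region of their name in both lists were NDUFAF2, NDUFAF5, NDUFAF8, TMEM126B, SDHAF2, UQCC3, SCO2, PET117, COA4, COA5 and COA8, besides LYRM7 and COA3. Of these, PET117, which acts on complex IV, had 18.8 and 24.4 in a region named for KAT14.

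Regulators of the pathway ranked above the subunit genes in both lists by their medians. The median percentile was 70.4 for the subunit genes and 90.6 for the regulators by name, and 75.8 and 87.7 by position. Of the regulators, all 12 had a region by position and 10 had one of their name. PPRC1, a PGC-1 related coactivator, had 20.8 and 21.0, and the region within 3 kb of its RefSeq 5′ end was another one, named for LDB1, with 6.91 and 7.14. GABPB1, the partner of GABPA, had 16.6 and 18.0, PPARGC1B had 15.4 and 15.6, and ESRRA, a nuclear receptor, had 16.3 and 13.4. TFAM, which packages mitochondrial DNA and takes part in its transcription, had 13.4 and 13.2. GABPA and PPARGC1A had no region of their name in both lists. Among 6 further subunits and partners, NDUFA4L2, a hypoxia-linked relative of NDUFA4, was highest with 17.3 and 21.6, COX4I1 had 10.4 and 9.73, COX4I2 had 5.38 and 5.19, and CYCS, cytochrome c, had 3.95 and 2.67.

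The share of subunit genes with a region by position (87.8%) lay under that of other lists of broadly used genes. It was 93.3% for mitochondrial ribosomal proteins, with 70 of 75 genes, 93.0% for cytosolic ribosomal proteins, with 80 of 86, and 94.7% for glycolysis, with 18 of 19. Without complex IV, 63 of 67 subunit genes had one. Complex IV had the lowest share by position in these same data, and no compared list was trimmed in this way. The count of 63 of 67 is therefore not comparable with the shares of those lists. The median percentiles were 70.4 for the subunit genes, 80.6 for mitochondrial ribosomal proteins, 82.5 for cytosolic ribosomal proteins and 81.8 for glycolysis, over regions of the gene's own name. Over regions by position they were 75.8 for the subunit genes, 79.4 for mitochondrial ribosomal proteins, 83.4 for cytosolic ribosomal proteins, 86.8 for glycolysis and 79.8 for other coding genes. Opposite-strand neighbours were present at 29.3% of the subunit genes, 32.4% of mitochondrial ribosomal protein genes and 5.26% of glycolysis genes. These lists differ in size, and no test of the differences was made.

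**Figure D5:**
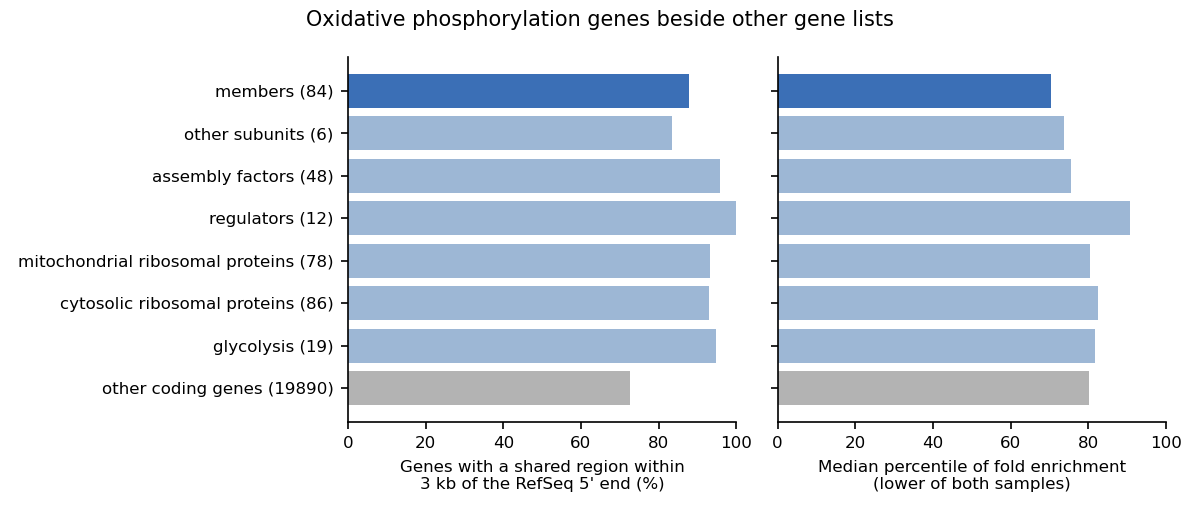
Bars give, for each list with its number of genes, the percentage with a shared region within 3 kb of the RefSeq 5′ end (left) and the median percentile of fold enrichment over genes with a region of their name (right). The 84 subunit genes (dark blue) have the lowest median percentile of the lists shown, at 70.4, against 90.6 for the regulators and 80.1 for other coding genes (grey).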

How the data were processed

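EP300 was mapped by ChIP-seq in 2 samples, and the authors deposited 1 annotated peak table for each. The aligner and peak caller were not given in the sources used here; fastp 0.19.11 and the build GRCh38 are named per the submitters' processing notes. Per the file headers, each row is 1 summit with a signal value, which is the authors' fold enrichment, a ratio over input. The deposited tables also give a -log10 p-value, of which only the -log10 q-value was used, and the deposited score was not used. The largest q was 0.0497 in replicate 1 and 0.0498 in replicate 2. With no read counts in the files, depth is unknown. No column of per-sample values was left unmapped (0).

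Rows of equal interval were joined into 1 peak, described by the summit of highest fold enrichment and by the largest -log10 q among them, on chromosomes 1 to 22 and X, with Python 3.11.15, pandas 2.3.3, numpy 2.4.6 and matplotlib 3.10.9. The joining and overlap steps were tested on simulated data. A promoter peak is one the authors annotated as promoter, within 3 kb of a start. Where several promoter regions of a gene were shared, the one with the highest lower percentile stands for it. By position, strand came from the RefSeq promoter table or the authors' annotation, and genes of unknown strand whose ends differed were left out, 202 in all with 2 of the 84. RefSeq lists NDUFA4 under a newer symbol, and older symbols were matched for 184 coding genes.

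The genes named are those without a shared promoter region, those with a shared region outside promoters, the 4 highest and 2 lowest by percentile of each complex, the isoform pairs, the 2 with the largest replicate difference each way and those sharing a region with a neighbour. Of the assembly factors and regulators, the 4 highest and those without a region of their name are named, with TFAM besides. Of the 6 further subunits and partners, NDUFA4L2, COX4I1, COX4I2 and CYCS were picked. Ribosomal and glycolysis genes were only summarised. One gene that the rule takes is not reported here. The rule, the members and the lists were chosen with earlier results of these data known. Alternatives were a stricter fold enrichment (5) or -log10 q (5), a 50% overlap, a 1 kb window, each replicate alone and assignment by position.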

Additional observations from a re-analysis of the deposited data

Results flagged for a closer look

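The symbol rule also matched pseudogenes, which were set aside in all results above. In replicate 1, 28 joined peaks were assigned to 13 pseudogenes of the family, and in replicate 2, 30 joined peaks to 14. Of these peaks 7 in each replicate were annotated as promoter, and 19 in replicate 1 and 17 in replicate 2 overlapped a peak of the other list. Their median fold enrichment was 4.33 in replicate 1 and 4.23 in replicate 2. The highest was assigned to ATP5MFP5, with its summit at -8199 bp from the start (upstream) and 12.4 in replicate 1, and at -8205 bp and 10.0 in replicate 2. They are listed because this signal lies outside the genes the comparisons used; no input table was available here to set it against.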

How the results depend on the processing

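Over 12 results, 64 recomputed values stayed within 1.5 times the main count or within the spread between replicates, and 7 moved. The median percentile of the oxidative phosphorylation promoters, 70.4 in the main analysis, was 74.7 at a -log10 q of at least 5, 75.8 by RefSeq 5′ end and 80.2 at a fold enrichment of at least 5, and 75.9 to 78.4 with 1 replicate left out. The cause was not tested, beyond that fewer genes enter at the stricter thresholds and a single list with 1 replicate left out. The 8 shared regions outside promoters became 3 at a fold enrichment of at least 5 and 12 to 15 with 1 replicate left out. No value for these regions by RefSeq 5′ end could be given. With 1 replicate left out, genes with a promoter region of their name numbered 60 to 64. At a fold enrichment of at least 5 in both lists, 45 of 84 genes had a region of their name (53.6%), against 55.0% of coding genes, and at a -log10 q of at least 5 they numbered 56 (66.7%), against 63.3%. No paired analysis was possible because there is 1 group with a peak table and no test between groups. Unknown depth limits any statement on genes without a region, which were not detected in these lists and may lie under the authors' threshold.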
